A study of Mus musculus with 30 samples.

Results

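The genes described here are 10 genes of the endoplasmic reticulum (ER) stress response and the integrated stress response, read in mouse liver with and without the hepatocyte transcription factor CEBPA. They were taken by symbol (Atf4, Ddit3, Atf3, Trib3, Chac1, Asns, Hspa5, Dnajb9, Herpud1 and Xbp1) from a count table of 55450 gene rows, where the 10 symbols matched 11 rows. The additional row was a short gene entry also named Ddit3 that lies inside the CHOP gene. It held 1 count in 1 of the 30 libraries and is not described further.

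The livers came from male mice, backcrossed to C57BL/6N, of 3 experiments. Controls were Cebpa fl/fl (Cre-), with 5 mice in each experiment beside 5 knockout mice (Cre+), and all 6 groups were fed the HFCFD, a diet rich in fat, cholesterol and fructose. In HFCFD2W the knockout mice were Cebpa ΔHep, in which Cre under the albumin promoter acts from early life, and the diet lasted 2 weeks. In both later experiments, HFCFD8W+T10D and HFCFD12W+T10W, they were Cebpa ΔHep,ERT2, in which an albumin-driven Cre is switched on by tamoxifen. The labels give HFCFD8W+T10D as 8 weeks of diet with tamoxifen for 10 days and HFCFD12W+T10W as 12 weeks of diet plus 10 weeks with tamoxifen, 22 weeks of diet in all. Whole liver was sequenced, so the albumin promoter limits the deletion to hepatocytes while the RNA comes from every liver cell. There was no chow-fed group, and the 3 experiments differ in Cre line, diet time and tamoxifen, which cannot be told apart between them. Ages were not given in the sources used here.

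Proteins that enter the ER are folded there by chaperones, and when unfolded protein accumulates the membrane sensors PERK, IRE1 and ATF6 start the unfolded protein response. PERK shares its target, the translation factor eIF2α, with kinases that sense amino acid shortage, viral RNA and heme lack, so that their common output, translation of the transcription factor ATF4, is called the integrated stress response. ATF4 raises transcription of CHOP (Ddit3), ATF3, TRIB3, CHAC1 and asparagine synthetase, while ATF6 and spliced XBP1 raise chaperones and degradation factors such as BiP (Hspa5), ERdj4 (Dnajb9) and HERP (Herpud1). The liver secretes much of the plasma's protein and carries a large load of ER folding. Much of this response is set by translation, phosphorylation and splicing, which counts of mRNA per gene do not measure, and the Xbp1 row adds spliced and unspliced mRNA together.

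The promoter windows of these genes hold letters linked to both branches, and the windows of the most abundant pair are shown in full because Hspa5 and Herpud1 also varied together between mice. The sequences are RefSeq's, from 250 bases before to 50 bases after the annotated start, on build GRCm38.p6 and in the direction of the gene. Capitals mark the ER stress response element in Hspa5, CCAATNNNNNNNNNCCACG, which ATF6 binds together with NF-Y, and in Herpud1 the C/EBP-ATF response element TGATGNAA, which ATF4 binds with C/EBP partners and which lies there on the opposite strand. The Herpud1 window also holds CCACG, which ends the ER stress response element and is left there in lower case. The Hspa5 window is chr2:34771840-34772139 on the plus strand and the Herpud1 window is chr8:94386179-94386478 on the plus strand.
Hspa5: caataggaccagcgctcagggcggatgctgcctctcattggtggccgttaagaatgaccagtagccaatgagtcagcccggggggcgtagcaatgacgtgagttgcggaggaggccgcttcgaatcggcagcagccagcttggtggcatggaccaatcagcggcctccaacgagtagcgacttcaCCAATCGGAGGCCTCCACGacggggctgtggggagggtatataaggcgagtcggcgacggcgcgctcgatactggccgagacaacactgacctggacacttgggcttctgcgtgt
Herpud1: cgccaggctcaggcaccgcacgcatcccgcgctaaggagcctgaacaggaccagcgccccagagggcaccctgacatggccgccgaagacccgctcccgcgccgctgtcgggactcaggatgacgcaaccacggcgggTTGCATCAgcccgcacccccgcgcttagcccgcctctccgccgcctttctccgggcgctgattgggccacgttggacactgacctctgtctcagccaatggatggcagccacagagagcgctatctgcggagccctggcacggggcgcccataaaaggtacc

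Of the 10 windows, 1 held the ER stress response element in the 19 letters given above. Of all 32851 promoter windows of the same length, 0.119% did. The C/EBP-ATF response element was found on either strand in 5 windows, against 3.97% of all windows. The 5 stretches are given because 4 of these genes, all but Asns, differed between the genotypes in at least 1 experiment, with 11 bases on each side of the element, which is in capitals.
Atf3: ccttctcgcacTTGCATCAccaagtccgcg
Chac1: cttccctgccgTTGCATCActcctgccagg
Trib3: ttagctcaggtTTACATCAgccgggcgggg
Asns: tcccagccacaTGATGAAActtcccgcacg
Herpud1: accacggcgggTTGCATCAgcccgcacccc

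In the direction of the gene, the capitals of Atf3, Chac1, Trib3 and Herpud1 are the element read from the opposite strand, and those of Asns are the element itself. The stretches are at chr1:191183425-191183454 (Atf3, minus strand), chr2:119351038-119351067 (Chac1, plus strand), chr2:152344028-152344057 (Trib3, minus strand), chr6:7693214-7693243 (Asns, minus strand) and chr8:94386306-94386335 (Herpud1, plus strand). The element lay before the annotated start in 4 of them and from base 14 to base 21 after it in Trib3. The 5 letters CCACG, which form the end of the ER stress response element, were found in 6 of the 10 windows and in 32.8% of all windows. In Herpud1 they lay from base -122 to -118 and from base -46 to -42 relative to the start. Other arrangements of the element were not searched, so a window without the 19 letters may still hold one. The 8 letters TTGCNNAA, a pattern of C/EBP sites, were found in 1 window, that of Xbp1, and in 10.8% of all windows. TGACGTGG, which spliced XBP1 binds, and TGACGTCA, the cyclic AMP response element, were found in 0 of the 10, against 0.676% and 1.79% of all windows. These are matches of letters and not measured sites.

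Library totals ran from 7996128 to 10257366 counts, and mitochondrial genes took 4.89% to 7.67% of them. Cebpa itself was lower in every knockout mouse than in every control of its experiment. Its mean level in CPM (counts scaled to a common library size) was 2.68%, 11.9% and 18.6% of the control mean in HFCFD2W, HFCFD8W+T10D and HFCFD12W+T10W. Levels below are CPM after TMM scaling (trimmed mean of M values), given as mean ± SD over 5 mice, and log2 fold changes are knockout minus control. A difference is called where edgeR's quasi-likelihood test gave an adjusted p below 0.05, adjusted over all genes tested. In HFCFD2W, 8.6% of 11068 genes tested were called higher in the knockout and 8.09% lower. HFCFD8W+T10D had 11990 genes tested, with shares of 10.3% and 6.85%, and HFCFD12W+T10W had 12463, with shares of 27.4% and 23.8%. The genotypes did not overlap, all 5 mice of one against all 5 of the other, in 12.5%, 11.5% and 39.1% of the genes tested in the 3 experiments.

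Of the 10 genes, 5 were called in at least 1 experiment, and Herpud1 alone in 2. In HFCFD2W, Herpud1 and Atf4 were called higher and Trib3 lower, HFCFD8W+T10D gave no call, and HFCFD12W+T10W had Atf3 called higher and Herpud1 and Chac1 lower. HFCFD2W thus had 3 calls among 8 genes tested, while HFCFD8W+T10D had 0 and HFCFD12W+T10W 3 among 9 tested, to be read against the shares of all genes above. Ddit3, Hspa5, Dnajb9 and Xbp1 passed the threshold in no experiment. With DESeq2, HFCFD8W+T10D gave 1 higher (Atf3, adjusted p = 0.0328) and 1 lower (Xbp1, adjusted p = 0.0294) in place of 0, and at an unadjusted p below 0.05 the edgeR test held 3 genes there, Atf3, Xbp1 and Herpud1.

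**Figure D1:**
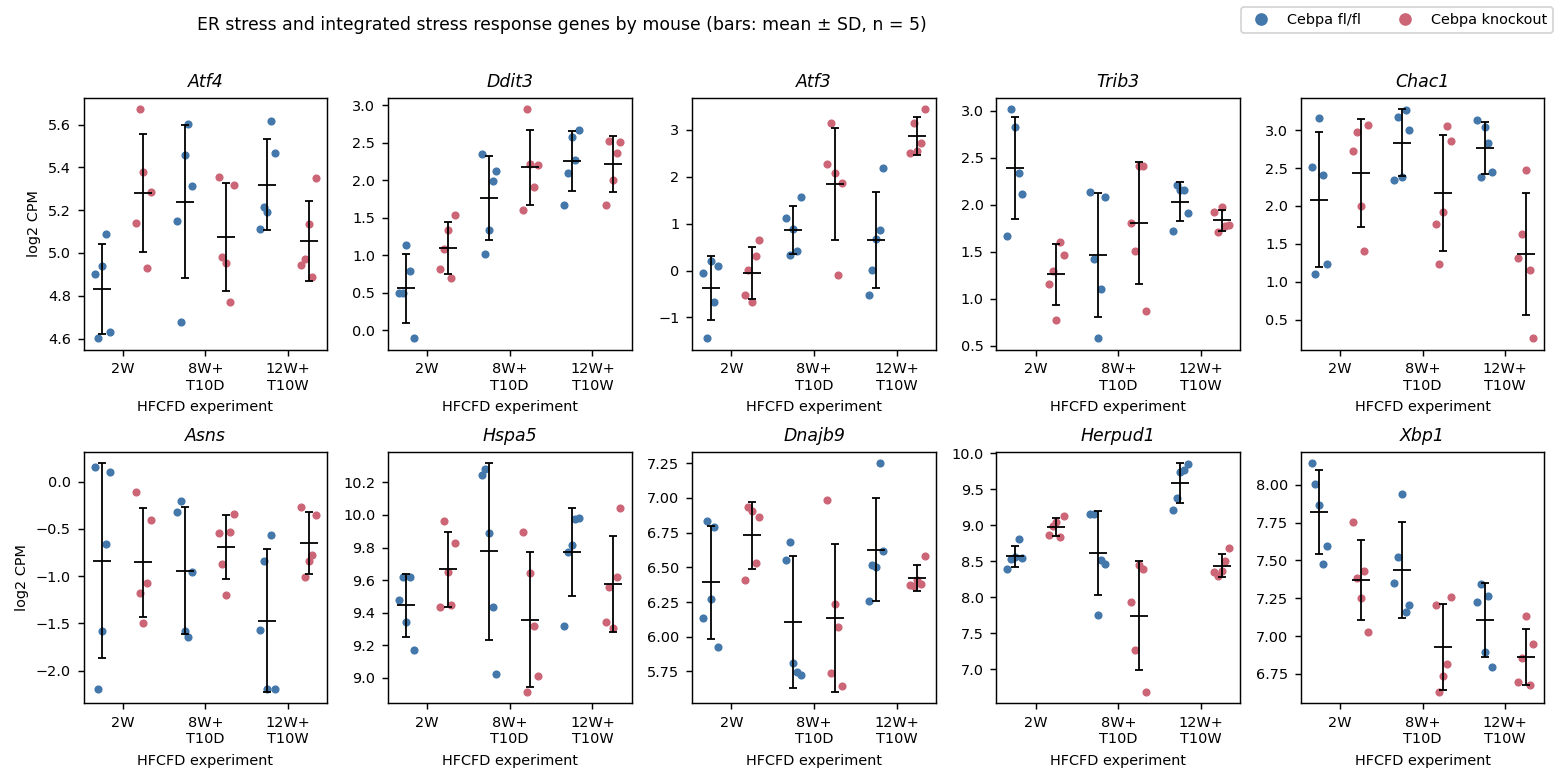
Log2 CPM (vertical axis, TMM-scaled, own range in each panel) of the 10 genes in the 3 experiments, with 1 point per mouse, controls in blue and knockout mice in red, and black bars for mean ± SD of 5 mice. Herpud1 separates the genotypes in opposite directions in HFCFD2W and HFCFD12W+T10W, and Atf3 stands highest in the HFCFD12W+T10W knockout mice.

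Per transcript length, as TPM, RSEM's length-scaled transcript level, Hspa5 or Herpud1 was the most abundant of the 10 in every group and Asns the least. Mean TPM of Hspa5, the ER lumen chaperone BiP that also holds the sensors inactive, lay between 304 ± 32.0 in HFCFD2W controls and 601 ± 158 in HFCFD12W+T10W knockout mice. Herpud1, a membrane protein of ER-associated degradation, ranked second in 5 groups, and in HFCFD12W+T10W controls it ranked above Hspa5, at 599 ± 107 against 510 ± 101 TPM, a gap within their SDs. Xbp1, Dnajb9 and Atf4 followed in that order in all 6 groups, at 84.1 to 111, 33.7 to 60.8 and 17.4 to 35.2 mean TPM, with Dnajb9 and Atf4 closer than their SDs in HFCFD8W+T10D controls (33.7 ± 8.10 and 28.2 ± 8.69). The remaining 5 genes were each below 12 TPM on average. Their order changed between groups, and Ddit3 ranked eighth in HFCFD2W controls and sixth in HFCFD12W+T10W controls. TPM carries no TMM scaling, so it was used for the order of genes within a group and not for differences between groups.

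**Figure D2:**
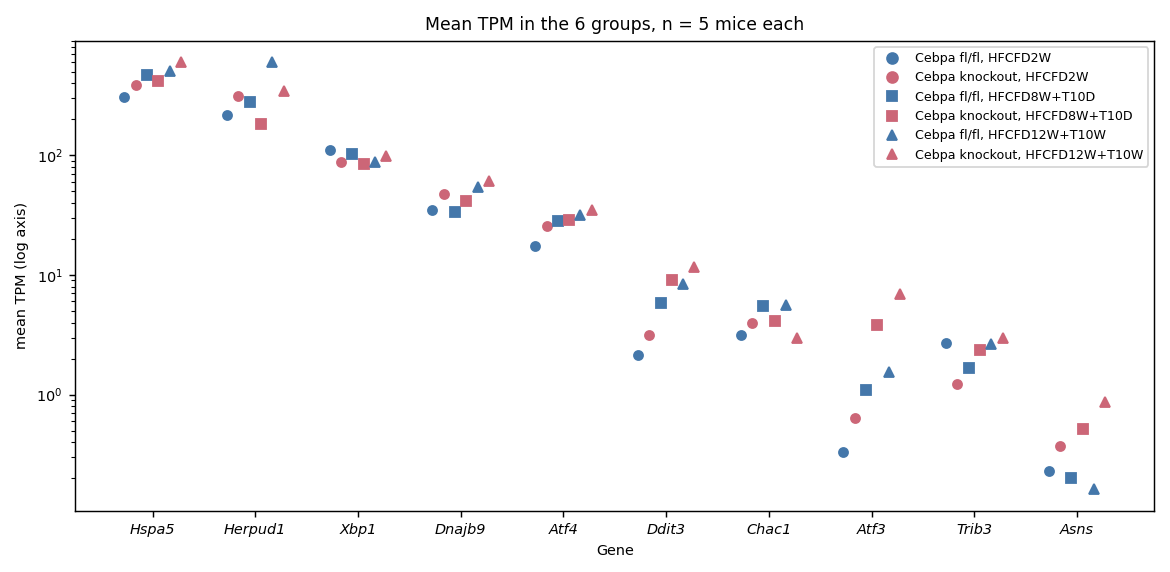
Mean TPM (vertical log axis) of each gene in the 6 groups of 5 mice, with circles, squares and triangles for HFCFD2W, HFCFD8W+T10D and HFCFD12W+T10W, blue for controls and red for knockout mice. Herpud1 is lowest at 183 in HFCFD8W+T10D knockout mice, above every value of Xbp1, and Asns is highest at 0.864.

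Atf4 encodes the transcription factor at the centre of the integrated stress response. In HFCFD2W its level was 29.7, 24.04, 30.4, 33.8 and 24.6 CPM in the 5 controls and 35.0, 50.7, 41.4, 30.3 and 38.8 CPM in the 5 knockout mice. The knockout mice were mostly higher, with an overlap of 1 knockout mouse into the control range. The difference was called, at a log2 fold change of 0.46 ± 0.133 (SE) and an adjusted p of 0.0319 by edgeR. It is a call that single mice decided, since it was lost without control 1 (adjusted p = 0.0572), 2 (0.0789) or 5 (0.078) and without knockout mouse 3 (0.0648), 4 (0.0571) or 6 (0.0579). Atf4 in HFCFD8W+T10D averaged 38.4 ± 8.78 CPM in controls and 33.9 ± 5.98 CPM in knockout mice, with an adjusted p of 0.543 by edgeR. In HFCFD12W+T10W they averaged 40.1 ± 6.09 and 33.3 ± 4.55 CPM (adjusted p = 0.124 by edgeR), and the lower level in knockout mice passed the threshold without knockout mouse 5 (-0.30 log2, adjusted p = 0.0411). With library totals in place of TMM factors the sign turned in both of these experiments, to 0.01 in HFCFD8W+T10D and 0.15 in HFCFD12W+T10W.

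Ddit3 encodes CHOP, a C/EBP family factor that promotes cell death under prolonged stress. The genotypes overlapped in every experiment. In HFCFD2W the 5 controls were at 1.19, 1.19, 1.98, 1.52 and 0.71 CPM and the 5 knockout mice at 1.54, 1.91, 2.30, 1.41 and 2.69 CPM, 0.54 ± 0.285 on the log2 scale (adjusted p = 0.214 by edgeR). Its means in HFCFD8W+T10D were 3.38 ± 1.28 and 4.53 ± 1.78 CPM (adjusted p = 0.372 by edgeR), and in HFCFD12W+T10W they were 4.71 ± 1.29 and 4.55 ± 1.13 CPM (adjusted p = 0.964 by edgeR). The exons of Ddit3 overlap those of Mars and Gm4189 on the other strand. The library kit keeps strand, and whether the counting used it was not given in the sources used here, so a share of these low counts may come from the neighbour.

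Atf3 encodes a stress-induced transcription factor that is also part of inflammatory and injury responses. In HFCFD12W+T10W its level was 0.48, 0.79, 1.38, 1.61 and 4.34 CPM in the 5 controls and 5.49, 8.59, 5.66, 6.39 and 10.6 CPM in the 5 knockout mice. Every knockout mouse was above every control. The difference was 4.27-fold between the means and 2.09 ± 0.414 on the log2 scale, with an adjusted p of 0.00101 by edgeR. The low-count filter asked for 5 libraries at or above 1.12 CPM there, which all 5 knockout mice and 3 of the 5 controls reached. In HFCFD8W+T10D the controls were at 1.97, 1.04, 1.62, 1.12 and 2.76 CPM and the knockout mice at 4.59, 8.64, 4.01, 0.71 and 3.42 CPM. Of the 5 knockout mice there, 4 were above every control and 1, mouse 4, below all of them. The log2 fold change of 1.35 ± 0.477 missed the threshold (adjusted p = 0.0697 by edgeR) and passed it without knockout mouse 4 (1.60, adjusted p = 0.00737). In HFCFD2W Atf3 fell below the low-count filter, with at most 10 counts in a library, and the means of 0.62 ± 0.33 and 0.81 ± 0.39 CPM gave a two-sided exact permutation p of 0.437.

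Some genes of the macrophage marker list were called higher in each of the 3 experiments, as were some cholangiocyte markers, in HFCFD2W only 1. In HFCFD2W Atf3 was under the low-count filter, so its lack of a call there cannot be set against these markers. Of the 7 macrophage markers tested in HFCFD2W 3 were called higher (summed 209.5 to 288.8 CPM in controls and 254 to 397.1 CPM in knockout mice), and all 9 were tested in the later pair. Of the 8 cholangiocyte markers 2 were tested in HFCFD2W, with log2 fold changes of 0.23 and 3.60, and 1 was called higher. The sum of the 8 was 34.28 to 77.27 CPM in controls and 377.7 to 663.1 CPM in knockout mice. This list includes Spp1, which the paper reports as induced mainly in hepatocytes when they lack CEBPA. Its sums are therefore not of cholangiocytes alone, and the part of Spp1 in them was not separated. With 1 marker called, the HFCFD2W sum does not stand for the cell type. Of the macrophage markers, 6 were called higher and 0 lower in HFCFD8W+T10D, and their summed level was 594.5 to 1102 CPM in controls and 1007 to 1978 CPM in knockout mice. In HFCFD12W+T10W 6 macrophage markers were called higher and 1, the resident-cell marker Timd4, lower. Their sum there was 285.6 to 812.5 CPM in controls and 948.4 to 1160 CPM in knockout mice. In HFCFD12W+T10W all 7 stellate cell markers were higher (summed 114.6 to 162.5 against 684.1 to 920.3 CPM), as were the 7 of 8 cholangiocyte markers tested (41.9 to 57.3 against 748.7 to 1048 CPM) and 3 of the 4 T cell markers tested. In HFCFD8W+T10D 2 of 7 stellate cell and 4 of 6 tested cholangiocyte markers were higher. Every mouse was over the low-count cutoff for only 1 tested cholangiocyte marker, in HFCFD12W+T10W as in HFCFD8W+T10D. For the T cell markers tested in HFCFD12W+T10W this held for 0. Macrophage markers with every mouse over the cutoff numbered 6 there, 4 of them called higher and 0 lower. HFCFD8W+T10D had 7 such macrophage markers, again with 4 higher and 0 lower. Stellate cell markers of this kind numbered 6 in each experiment, with 6 higher for HFCFD12W+T10W and 2 for HFCFD8W+T10D. Only 1 of 5 controls reached the cutoff for Trem2 in HFCFD12W+T10W, and 2 of 5 did for Gpnmb and the stellate cell marker Acta2. No control reached the cutoff for Prom1, Cftr, Cd3g and Cd8a in HFCFD12W+T10W or for Epcam in HFCFD8W+T10D. These genes were tested only because the knockout mice were high and could be called in no other direction. Hepatocyte markers went the other way, with 3 of 8 lower in HFCFD8W+T10D and 4 of 8 lower in HFCFD12W+T10W, among them albumin at 77550 CPM in controls and 35080 CPM in knockout mice of HFCFD12W+T10W. In HFCFD2W 0 hepatocyte markers were called, as were 0 of 7 stellate cell and 0 of 5 endothelial markers. B and plasma cell markers gave 1 call in all, endothelial markers 3 calls lower, and the immediate early genes that respond to tissue handling gave 1 higher in HFCFD2W (Jun), 1 lower in HFCFD8W+T10D and, among 6 tested, 0 for HFCFD12W+T10W. In whole liver, fewer cells of a type and less RNA per cell cannot be told apart, and the part of these cells in the values of the 10 genes was not tested. The marker counts are to be read beside the calls over all genes. For HFCFD12W+T10W these were 27.4% higher and 23.8% lower. HFCFD8W+T10D had 10.3% higher and 6.85% lower, and HFCFD2W 8.6% higher and 8.09% lower. Whether a marker list differed from these shares was not tested.

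Trib3 encodes a pseudokinase that ATF4 and CHOP induce and that dampens their activity. In HFCFD2W it was at 2.97, 7.87, 6.88, 4.83 and 4.12 CPM in the 5 controls and 2.01, 2.24, 1.49, 2.81 and 2.55 CPM in the 5 knockout mice. Every knockout mouse was below every control. The level in the knockout mice was 41.7% of that in controls, or -1.26 ± 0.272 on the log2 scale (adjusted p = 0.00768 by edgeR). In HFCFD8W+T10D the means were 2.77 ± 1.29 and 3.54 ± 1.54 CPM, and in HFCFD12W+T10W 3.91 ± 0.571 and 3.35 ± 0.28 CPM, with adjusted p of 0.578 and 0.348 by edgeR. The genotypes overlapped in both.

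Chac1 encodes an enzyme that degrades glutathione and that the ATF4 and CHOP branch induces. In HFCFD12W+T10W it was at 8.55, 4.99, 8.04, 6.89 and 5.25 CPM in the 5 controls and 2.27, 2.86, 5.32, 2.01 and 0.97 CPM in the 5 knockout mice. Knockout mouse 3 reached the controls' range and the other 4 lay below it. The log2 fold change was -1.28 ± 0.338 with an adjusted p of 0.00679 by edgeR. In HFCFD8W+T10D Chac1 averaged 7.17 ± 2.14 CPM in controls and 4.80 ± 2.59 CPM in knockout mice (adjusted p = 0.26 by edgeR), and in HFCFD2W 4.68 ± 2.80 and 5.69 ± 2.49 CPM (adjusted p = 0.704 by edgeR).

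Asns, the enzyme that makes asparagine, was close to the detection limit throughout, with group means of 0.18 to 0.45 CPM and at most 7 counts in a library. It was below the low-count filter in all 3 experiments. Two-sided exact permutation tests of 5 against 5 mice gave p values of 0.976, 0.46 and 0.0714 in HFCFD2W, HFCFD8W+T10D and HFCFD12W+T10W. In HFCFD12W+T10W 2 of the 5 controls had 0 counts, and the means were 0.18 ± 0.21 CPM in controls and 0.43 ± 0.15 CPM in knockout mice.

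Herpud1 was the only gene of the 10 called in opposite directions in 2 experiments. In HFCFD2W it was at 336.8, 372.1, 375.9, 448.1 and 374.4 CPM in the 5 controls and 465.4, 510.5, 527.4, 459.2 and 561.0 CPM in the 5 knockout mice. All knockout mice were higher, and the log2 fold change was 0.41 ± 0.0863 with an adjusted p of 0.00703 by edgeR. In HFCFD12W+T10W the controls were at 594.3, 667.2, 852.8, 873.9 and 922.8 CPM and the knockout mice at 325.8, 313.3, 329.2, 364.7 and 411.8 CPM. All knockout mice were lower there, at 44.6% of the control mean, and the log2 fold change was -1.12 ± 0.131 with an adjusted p of 1.81e-05 by edgeR. In HFCFD8W+T10D the controls were at 573.5, 570.3, 216.7, 367.4 and 354.6 CPM and the knockout mice at 244.8, 153.5, 349.5, 337.1 and 102.8 CPM. The spread there was wide and the genotypes overlapped, with a log2 fold change of -0.80 ± 0.335 and an adjusted p of 0.123 by edgeR. With 1 joint fit of all 30 libraries, which gives them a shared estimate of the spread, the HFCFD8W+T10D difference passed (-0.81, adjusted p = 0.0121) and the HFCFD2W difference did not (0.40, adjusted p = 0.288).

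Hspa5 did not pass the threshold in any experiment. Its level ran from 574.5 to 785.2 CPM in controls and 692.3 to 996.3 CPM in knockout mice of HFCFD2W, with means of 700.9 ± 90.6 and 820.2 ± 132.7 CPM (adjusted p = 0.212 by edgeR). Its means in HFCFD8W+T10D were 924.7 ± 319.3 and 677.1 ± 197.5 CPM (adjusted p = 0.276 by edgeR), and in HFCFD12W+T10W 885.1 ± 151.7 and 775.3 ± 170.2 CPM (adjusted p = 0.451 by edgeR). The HFCFD8W+T10D mice were the most dispersed, from 481.2 to 1246 CPM. Dnajb9, a co-chaperone of BiP that represses IRE1, averaged 86.4 ± 24.3 CPM in controls and 107.1 ± 17.2 CPM in knockout mice of HFCFD2W. It averaged 71.7 ± 24.5 and 74.3 ± 30.9 CPM in HFCFD8W+T10D and 101.6 ± 29.4 and 85.7 ± 5.65 CPM in HFCFD12W+T10W, with adjusted p of 0.229, 0.895 and 0.285 by edgeR.

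Xbp1, whose mRNA is the substrate of IRE1, was lower in the knockout mean of all 3 experiments, except with library totals in HFCFD12W+T10W (0.16 log2), and called in none. In HFCFD2W it was at 282.9, 256.5, 233.3, 178.1 and 193.4 CPM in the 5 controls and 215.5, 167.1, 152.3, 172.1 and 130.3 CPM in the 5 knockout mice, with a log2 fold change of -0.45 ± 0.147 and an adjusted p of 0.0536 by edgeR. In HFCFD8W+T10D the controls were at 163.0, 183.3, 245.9, 142.8 and 147.2 CPM and the knockout mice at 147.1, 98.8, 106.2, 112.3 and 153.2 CPM, with a log2 fold change of -0.50 ± 0.169 and an adjusted p of 0.0592 by edgeR. The genotypes overlapped in each. The HFCFD2W difference passed without control 4 (-0.53, adjusted p = 0.0284) or knockout mouse 2 (-0.56, adjusted p = 0.0197), and the HFCFD8W+T10D difference passed without knockout mouse 5 (-0.60, adjusted p = 0.0334). In HFCFD12W+T10W the means were 139.1 ± 22.9 and 116.8 ± 15.6 CPM (adjusted p = 0.171 by edgeR).

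**Figure D3:**
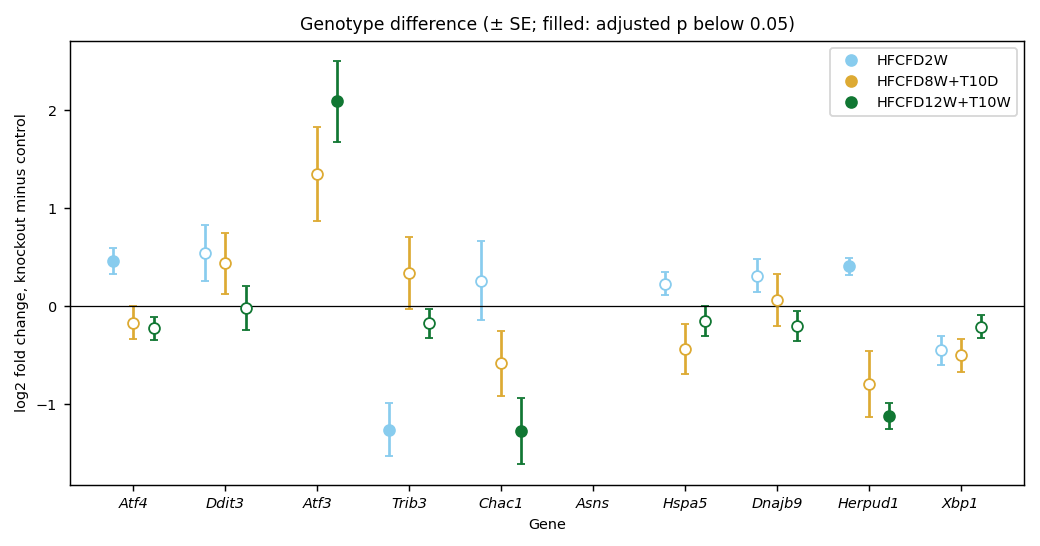
Log2 fold change (knockout minus control, vertical axis) of each gene with its SE in HFCFD2W (light blue), HFCFD8W+T10D (yellow) and HFCFD12W+T10W (green), each from 5 against 5 mice, with filled points for an adjusted p below 0.05. Atf3 reaches 2.09 in HFCFD12W+T10W and Herpud1 goes from 0.41 in HFCFD2W to -1.12 in HFCFD12W+T10W, while Asns has no point because its counts were too low.

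Whether the effect of the knockout differed between experiments was tested as an interaction in a fit of all 30 libraries. Between HFCFD8W+T10D and HFCFD2W 11.2% of 12964 genes differed, between HFCFD12W+T10W and HFCFD2W 30.7%, and between HFCFD12W+T10W and HFCFD8W+T10D 10.5%. Herpud1 differed in the former pair of comparisons, by -1.21 ± 0.337 log2 units between HFCFD8W+T10D and HFCFD2W (adjusted p = 0.0181 by edgeR) and by -1.57 ± 0.338 between HFCFD12W+T10W and HFCFD2W (adjusted p = 0.00087 by edgeR). Trib3 differed by 1.59 ± 0.419 between HFCFD8W+T10D and HFCFD2W (adjusted p = 0.0129 by edgeR), and by 1.04 ± 0.411 between HFCFD12W+T10W and HFCFD2W, which missed the threshold (adjusted p = 0.0528 by edgeR) and passed it with DESeq2 (adjusted p = 0.0388). Atf4 differed by -0.73 ± 0.215 between HFCFD12W+T10W and HFCFD2W (adjusted p = 0.0111 by edgeR), and by -0.64 ± 0.216 between HFCFD8W+T10D and HFCFD2W (adjusted p = 0.0507 by edgeR). Chac1 differed by -1.58 ± 0.574 between HFCFD12W+T10W and HFCFD2W (adjusted p = 0.0362 by edgeR). None of the 10 differed between the 2 experiments with inducible Cre, HFCFD12W+T10W and HFCFD8W+T10D, where 0 genes also passed with DESeq2 and 0 had an unadjusted p below 0.05. The comparisons with HFCFD2W share its 10 mice, so they are not independent of each other.

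The Chac1 interaction rested on single mice. It was lost in 12 of 30 fits with 1 mouse left out, with adjusted p of up to 0.0768. The mice were knockout mice 1, 2, 4 and 5 and controls 1, 3 and 4 of HFCFD12W+T10W, and knockout mice 2, 3 and 6 and controls 2 and 5 of HFCFD2W, and the log2 difference without them was between -1.58 and -1.34. The Trib3 difference between HFCFD12W+T10W and HFCFD2W passed in 11 of the 30 fits (1.04 to 1.19, adjusted p from 0.0273 to 0.0499), those without knockout mouse 5 or control 1 or 5 of HFCFD2W, or knockout mouse 2, 3, 4 or 5 or control 1, 3, 4 or 5 of HFCFD8W+T10D. Likewise the Atf4 difference between HFCFD8W+T10D and HFCFD2W passed in 7 (-0.76 to -0.64, adjusted p from 0.0135 to 0.0497), those without control 4 of HFCFD12W+T10W, knockout mouse 2 or 5 or control 4 of HFCFD2W, or knockout mouse 1 or 5 or control 2 of HFCFD8W+T10D. Atf3 differed between HFCFD12W+T10W and HFCFD2W without HFCFD12W+T10W control 5 (2.46, adjusted p = 0.0207), and Hspa5 between HFCFD8W+T10D and HFCFD2W without HFCFD8W+T10D control 5 (-0.82, adjusted p = 0.0469). With library totals in place of TMM factors the Chac1 and Atf4 interactions between HFCFD12W+T10W and HFCFD2W were not called (-1.18, adjusted p = 0.101, and -0.33, adjusted p = 0.311).

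Among the control mice alone, 3 of the 9 genes tested differed between HFCFD8W+T10D and HFCFD2W, 4 between HFCFD12W+T10W and HFCFD2W and 1 between HFCFD12W+T10W and HFCFD8W+T10D, which is near the shares of all genes. Between HFCFD8W+T10D and HFCFD2W controls 43.6% of all genes tested differed, between HFCFD12W+T10W and HFCFD2W controls 39.1%, and between HFCFD12W+T10W and HFCFD8W+T10D controls 11.4%. Ddit3 was higher in controls of HFCFD8W+T10D than of HFCFD2W by 1.34 ± 0.324 log2 units (adjusted p = 0.00139 by edgeR) and in those of HFCFD12W+T10W by 1.81 ± 0.315 (adjusted p = 5.85e-05 by edgeR), rising from 1.32 ± 0.47 to 4.71 ± 1.29 CPM. The 5 controls of HFCFD12W+T10W were at 2.97, 4.08, 5.74, 4.59 and 6.16 CPM, all above the highest control of HFCFD2W at 1.98 CPM. Atf4 was higher by 0.43 ± 0.154 (adjusted p = 0.0239 by edgeR) and 0.49 ± 0.154 (adjusted p = 0.0126 by edgeR) in the same comparisons. The smaller of these was lost without HFCFD8W+T10D control 4 (0.35, adjusted p = 0.076) and without HFCFD2W control 2 (0.38, adjusted p = 0.0666) or 5 (0.38, adjusted p = 0.0643). Trib3 was lower in HFCFD8W+T10D than in HFCFD2W controls by -0.94 ± 0.288 (adjusted p = 0.00962 by edgeR).

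Herpud1 in controls was highest in HFCFD12W+T10W, by 1.04 ± 0.24 log2 units over HFCFD2W (adjusted p = 0.00117 by edgeR) and by 0.91 ± 0.239 over HFCFD8W+T10D (adjusted p = 0.0121 by edgeR). It was the only gene of the 10 called between the HFCFD12W+T10W and HFCFD8W+T10D controls. Xbp1 went down, by -0.72 ± 0.161 between HFCFD12W+T10W and HFCFD2W controls (adjusted p = 0.00086 by edgeR), from 228.8 ± 43.4 to 139.1 ± 22.9 CPM. Atf3 in controls was higher by 1.43 ± 0.609 for HFCFD8W+T10D and 1.46 ± 0.607 for HFCFD12W+T10W than for HFCFD2W, with adjusted p of 0.0576 and 0.056 by edgeR and 0.023 and 0.0227 by DESeq2. The HFCFD8W+T10D difference passed in 6 of 30 fits with 1 mouse left out (adjusted p from 0.0303 to 0.0493) and the HFCFD12W+T10W difference in 4 (0.0214 to 0.0387). Between the HFCFD8W+T10D and HFCFD2W controls, Xbp1 passed in 4 such fits (-0.50 to -0.38, adjusted p from 0.0112 to 0.0499) and Hspa5 without HFCFD8W+T10D control 5 (0.57, adjusted p = 0.0208). Among the knockout mice of the inducible line, 27.7% of all genes tested differed between HFCFD12W+T10W and HFCFD8W+T10D, and 0 of the 10 genes were called by edgeR or DESeq2, with 1 of them, Herpud1, at an unadjusted p below 0.05 (0.56 ± 0.238, adjusted p = 0.0819 by edgeR). Without HFCFD8W+T10D knockout mouse 3 or 4, or control 3, Herpud1 passed there (adjusted p = 0.0204, 0.0376 and 0.0433). Atf3 passed without HFCFD8W+T10D knockout mouse 2 (1.198, adjusted p = 0.022) and Chac1 without HFCFD12W+T10W knockout mouse 3 (-1.22, adjusted p = 0.0388).

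The wider pathway was read in 3 lists. The ATF4 list holds 39 further targets and regulators, the ER list 39 folding, translocation and degradation genes, and the sensor list 26 stress kinases, eIF2B subunits, sensors and their partners. In HFCFD2W, 7 of 27 tested ATF4 genes were higher and 5 lower (25.9% and 18.5%, beside 8.6% and 8.09% of all genes), with a median log2 fold change of 0.06 against 0.01 over all genes. The mitochondrial folate enzyme Mthfd2 rose by 2.32 ± 0.438 (adjusted p = 0.00342 by edgeR), the mTOR inhibitor Ddit4 by 1.52 ± 0.296 (0.004), the transcription factor Cebpb by 1.11 ± 0.154 (0.000394) and Ppp1r15a, which directs dephosphorylation of eIF2α, by 0.91 ± 0.162 (0.00226). Cth, an enzyme of cysteine synthesis, changed by -0.31 ± 0.0763 (adjusted p = 0.0144 by edgeR), the amino acid transporter subunit Slc3a2 by -0.28 ± 0.0812 (0.034) and the tRNA export factor Xpot by -0.23 ± 0.0654 (0.0278). These 7 were named from called genes whose genotypes did not overlap, so the lack of overlap is how they were chosen. Of the 27 tested ATF4 genes, 7 were higher and 3 lower without overlap, beside 12.5% of all genes without overlap. Mthfd2 met the low-count filter through the knockout mice, since 1 of 5 controls reached its cutoff. Single mice decided the calls of Slc3a2 and Xpot. Slc3a2 was lost without control 1, 2, 4 or 5 or knockout mouse 3 or 6 (adjusted p of up to 0.0764), and Xpot without control 1 or 4 or knockout mouse 2, 3 or 6 (up to 0.0623). The number of ATF4 genes lower fell to 2 without control 1, 4 or 5 or knockout mouse 6, and to 3 without control 2 or knockout mouse 2.

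In HFCFD8W+T10D, 4 of 34 tested ATF4 genes were higher and 2 lower (11.8% and 5.88%, beside 10.3% and 6.85% of all genes). The stress-induced Sesn2 rose by 0.71 ± 0.175 (adjusted p = 0.0155 by edgeR) and the glycyl-tRNA synthetase Gars by 0.48 ± 0.099 (0.00641), while Cth changed by -0.77 ± 0.131 (0.00205). In HFCFD12W+T10W 11 of 37 were higher and 9 lower, shares of 29.7% and 24.3% that are near the 27.4% and 23.8% of all genes, with a median of 0.06 against 0.01 over all genes. Among the 26 that all 5 mice of both genotypes carried over the low-count cutoff, 3 were higher and 9 lower. The death receptor Tnfrsf10b rose by 3.77 ± 0.449 (adjusted p = 2.16e-05 by edgeR), the secreted glycoprotein Stc2 by 2.98 ± 0.371 (2.99e-05) and the serine synthesis enzymes Phgdh by 2.74 ± 0.566 (0.00136) and Psat1 by 2.22 ± 0.268 (2.34e-05). In these 4 genes 0 of 5 controls reached the cutoff, so they were tested only because the knockout mice were high and could be called in no other direction. The lipoprotein receptor Vldlr changed by -0.96 ± 0.197 (adjusted p = 0.00134 by edgeR), the stress hormone Gdf15 by -0.94 ± 0.201 (0.00177), Cth by -0.84 ± 0.108 (3.87e-05) and the mitochondrial serine enzyme Shmt2 by -0.57 ± 0.128 (0.0024). Cth, for which a lack of overlap was a condition of being named, was thus lower in the knockout mice of all 3 experiments. This held also with library totals (-0.29, -0.59 and -0.47 log2). With those totals Shmt2 was not called in HFCFD12W+T10W (-0.21, adjusted p = 0.166), nor Slc3a2 and Xpot in HFCFD2W (adjusted p = 0.0542 and 0.0543).

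Of the ER folding and degradation genes, HFCFD2W had 2 higher and 2 lower among 38 tested. With 39 tested in each of the later experiments, 2 and 2 were called in HFCFD8W+T10D, 5 and 9 in HFCFD12W+T10W. Genes called higher were 5.26%, 5.13% and 12.8% of those tested in the 3 experiments, below the 8.6%, 10.3% and 27.4% of all genes, and the lower ones 5.26%, 5.13% and 23.1%, beside 8.09%, 6.85% and 23.8%. In HFCFD2W the degradation factor Derl2 changed by -0.58 ± 0.0772 (adjusted p = 0.000271 by edgeR), the mannosidase-like Edem1 by -0.30 ± 0.0764 (0.0171) and its relative Edem3 by 0.25 ± 0.0652 (0.0191), a call lost without control 5 (adjusted p = 0.0521). Edem3 went the other way in HFCFD8W+T10D, at -0.36 ± 0.0859 (adjusted p = 0.0139 by edgeR). In HFCFD12W+T10W the degradation lectin Os9 changed by -0.53 ± 0.0805 (adjusted p = 0.000147 by edgeR), the ligase adaptor Sel1l by -0.46 ± 0.0813 (0.000437), Edem1 by -0.41 ± 0.0675 (0.000262) and the PERK inhibitor Dnajc3 by -0.39 ± 0.0796 (0.0012). The reductase Dnajc10 rose by 0.59 ± 0.0786 (adjusted p = 5e-05 by edgeR) and Wfs1, an ER membrane protein, by 0.54 ± 0.113 (0.0016). Degradation genes did not all go one way there. Edem2 was called higher (0.37 ± 0.113, adjusted p = 0.0158 by edgeR), while the ligase Syvn1 and its partner Selenos were not called (adjusted p = 0.275 and 0.998 by edgeR), all 3 named after their values were seen. With library totals Os9, Sel1l, Edem1 and Dnajc3 were not called (-0.16, -0.09, -0.04 and -0.02 log2, with adjusted p from 0.0646 to 0.864), nor was Edem3 in HFCFD8W+T10D (-0.16, adjusted p = 0.376), while Herpud1 was (-0.75, adjusted p = 0.000311).

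Of the sensors and upstream regulators, HFCFD2W had 0 higher and 1 lower among 24 tested. With 25 tested in each of the later experiments, 0 and 1 were called in HFCFD8W+T10D, 5 and 6 in HFCFD12W+T10W. In HFCFD12W+T10W the lower share was near the 23.8% of all genes and the higher one below their 27.4%. The HFCFD2W shares were 0% and 4.17%, beside 8.6% and 8.09% of all genes. Those of HFCFD8W+T10D were 0% and 4.0%, beside 10.3% and 6.85%. Ppp1r15b was the lower gene in both HFCFD2W and HFCFD8W+T10D. It encodes the constitutive partner of the eIF2α phosphatase and was at -0.22 ± 0.0648 (adjusted p = 0.0379 by edgeR) in HFCFD2W and -0.56 ± 0.0766 (0.000426) in HFCFD8W+T10D. The HFCFD2W call was lost without control 1, 2, 3 or 5 or knockout mouse 3, 4 or 6 (adjusted p of up to 0.0926). In HFCFD12W+T10W Ppp1r15b was at -0.68 ± 0.0768 (adjusted p = 1.51e-05 by edgeR), the IRE1 inhibitor Tmbim6 at -0.66 ± 0.0957 (9.46e-05) and the heme-regulated eIF2α kinase Eif2ak1 at -0.30 ± 0.0658 (0.00227). Creb3l1, a membrane-bound transcription factor cleaved like ATF6 and expressed in matrix-producing cells, rose by 1.69 ± 0.237 (adjusted p = 7.84e-05 by edgeR). It met the low-count filter through the knockout mice, since 3 of 5 controls reached the cutoff. Among the 24 sensors with every mouse over the cutoff in HFCFD12W+T10W, 4 were higher and 6 lower. The counts of these lists depend on the scaling. With library totals in place of TMM factors, a choice made after seeing the data, the median of all genes moved from 0.01 to 0.38 log2 units in HFCFD12W+T10W and from 0.01 to 0.20 in HFCFD8W+T10D. In HFCFD12W+T10W the ATF4 list then gave 22 higher and 3 lower, the ER list 23 higher and 0 lower and the sensor list 17 higher and 2 lower, and Eif2ak1 turned to 0.08. Ppp1r15b was then not called in HFCFD2W (-0.19, adjusted p = 0.109) and was in the later pair (-0.38 and -0.30). For HFCFD8W+T10D the ER list gave 7 higher and 0 lower, the ATF4 list 6 and 2 and the sensor list 1 and 1, and in HFCFD2W the ATF4 list gave 7 and 3 and the sensor list 0 and 0. The calls of the 10 genes themselves were unchanged in number by that scaling in the 3 genotype comparisons.

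**Figure D4:**
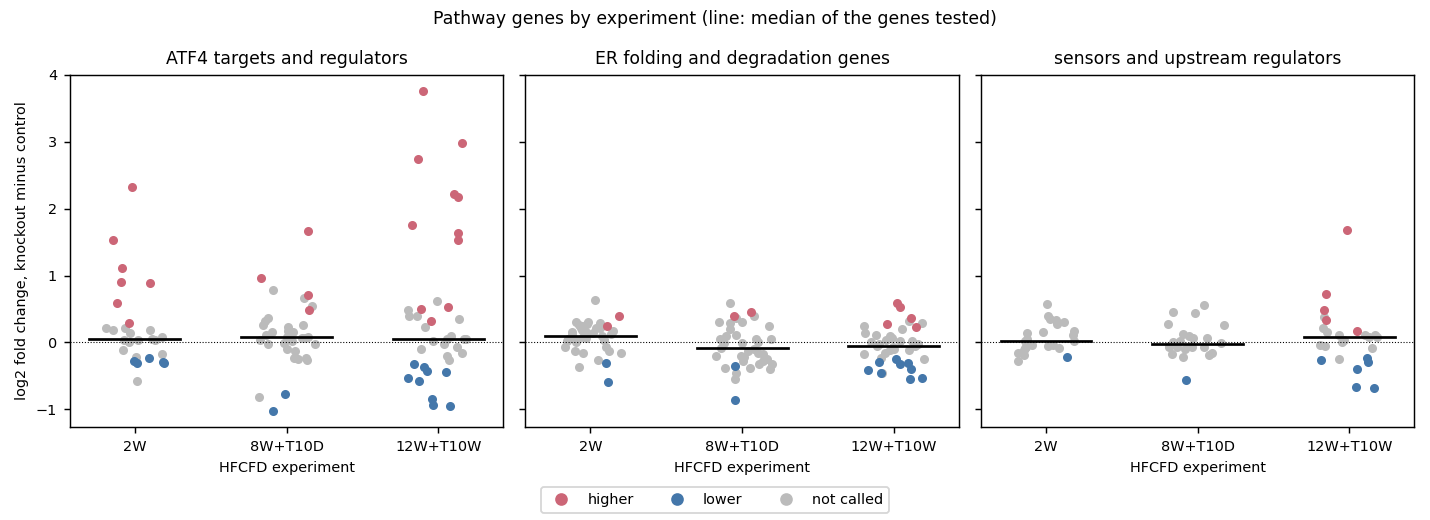
Log2 fold change (knockout minus control, vertical axis) of every tested gene of the 3 pathway lists in each experiment, with 1 point per gene, red for called higher, blue for called lower, grey for not called, and a black line at the median of the tested genes. The median furthest from 0 is 0.101, of the ER genes in HFCFD2W, and the called genes are most numerous in HFCFD12W+T10W.

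Whether the genes varied together from mouse to mouse was asked of 6 pairs, after the mean of each of the 6 groups was taken away, over 30 mice. Hspa5 and Herpud1 varied together by rank, with Spearman's rho of 0.702 (adjusted permutation p = 0.00588 over the 6 pairs) and Pearson's r of 0.572 (permutation p = 0.0223, adjusted p = 0.0669). Without the 2 mice farthest from the median of Hspa5, r was 0.616. Within HFCFD2W, HFCFD8W+T10D and HFCFD12W+T10W, with 10 mice each, r was 0.532, 0.55 and 0.841. Atf3 and Ddit3 gave rho of 0.503 (adjusted permutation p = 0.0318) and r of 0.483 (permutation p = 0.0169, adjusted p = 0.0669), r was 0.468 without the 2 mice farthest from the median of Atf3, and within the 3 experiments r was 0.0751, 0.506 and 0.803. In both pairs the relation had the same sign in all 3 experiments, and for Atf3 and Ddit3 it was near 0 in HFCFD2W, where both genes had few counts.

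With 1 mouse left out, r of Hspa5 and Herpud1 stayed between 0.526 and 0.688 and passed in 3 of 30 cases, without HFCFD2W control 2 (adjusted permutation p = 0.0405), HFCFD8W+T10D knockout mouse 1 (0.0465) or control 3 (0.009). The r of Atf3 and Ddit3 stayed between 0.393 and 0.57 and passed in 4 of 30 cases, without HFCFD2W control 2 (adjusted permutation p = 0.0405) or 5 (0.03), HFCFD8W+T10D knockout mouse 1 (0.0465) or control 3 (0.048).

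The other 4 pairs did not pass. Ddit3 and Trib3, a factor and its target, gave r of 0.172 and rho of 0.176 (adjusted permutation p = 0.87 and 0.853). Atf4 and Asns gave r of -0.115 and rho of -0.116 (adjusted permutation p = 0.87 and 0.867), and Xbp1 and Dnajb9 gave r of 0.0309 and rho of 0.00823 (adjusted permutation p = 0.937 and 0.97). Without the 2 mice farthest from the median of the gene named first, r was 0.244, 0.0224 and 0.178 for these pairs. Hspa5 and Ddit3, which stand for the chaperone and the CHOP branches, gave r of -0.0188 and rho of 0.0478 over all mice (adjusted permutation p = 0.937 and 0.97) and r of 0.173 without the 2 farthest mice. Within HFCFD2W, HFCFD8W+T10D and HFCFD12W+T10W their r was 0.535, -0.554 and 0.792, so the pooled value joins opposite signs. The difference between these values was not tested.

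**Figure D5:**
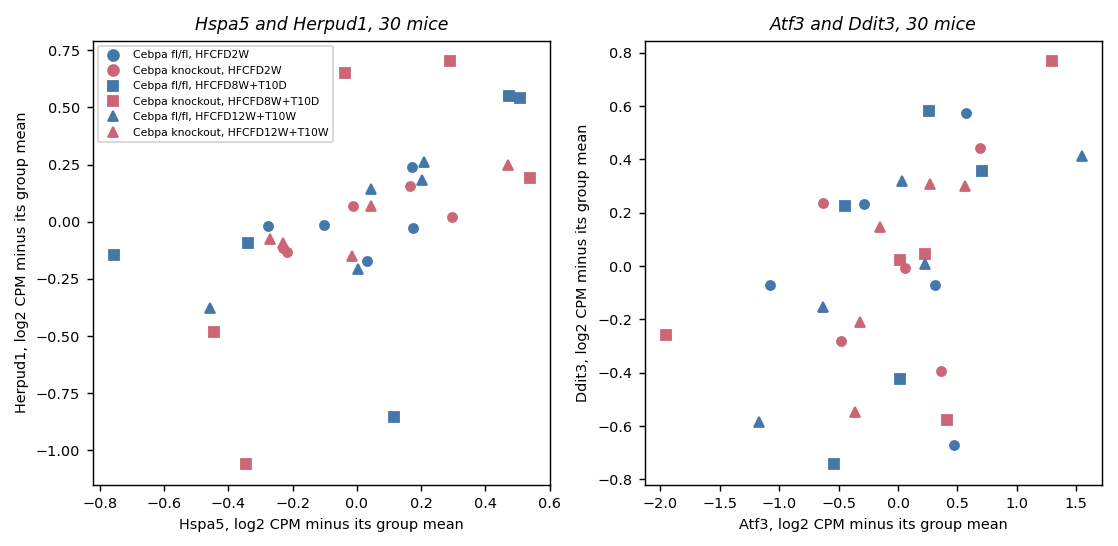
Log2 CPM minus its group mean for Hspa5 against Herpud1 (left) and Atf3 against Ddit3 (right), with 1 point per mouse, 30 mice, circles, squares and triangles for HFCFD2W, HFCFD8W+T10D and HFCFD12W+T10W, blue for controls and red for knockout mice. Points rise from lower left to upper right in both panels, and the HFCFD8W+T10D mice spread most in Herpud1.

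Finally, each gene's level over the 30 libraries was set beside those of 12963 other genes to find the 3 whose log2 CPM followed it most closely. These values are a description, since the 30 libraries share 6 group means. Hspa5 was closest to Hyou1 (r = 0.943), Manf (0.915) and Pdia4 (0.853), which are ER chaperones and a secreted ER stress protein. Dnajb9 was closest to Txndc11 (0.749), Insig1 (0.748) and Ficd (0.717), of which Ficd modifies BiP. Herpud1 was closest to Arl5b (0.883), Klf15 (0.866) and Tat (0.858), none of them on the lists above, and Xbp1 to Mup7 (0.849) and Srd5a1 (0.831). Atf3 was closest to Arpc1b (0.946), Fam49b (0.93) and Hmgb2 (0.921), and Ddit3 to Bnip2 (0.885), Dock11 (0.88) and Bicd2 (0.876). Atf4 was closest to Rtf1 (0.854), Ddx23 (0.756) and Zfhx3 (0.749). Chac1 was closest to Ube2r2 (0.82), Eif4ebp3 (0.771) and D230025D16Rik (0.75), and Trib3 to Slc22a15 (0.753), Pik3c2g (0.672) and Cdc42ep4 (0.644). No member of the 10 was among the 3 closest genes of another.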

How the data were processed

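Liver poly(A) mRNA of 30 mice was measured by stranded RNA-Seq. Per the submitters' processing notes, reads were handled with Trimmomatic 0.36, STAR 2.5.1, Picard 1.84 and RSEM 1.2.22 on mm10, and DESeq2 was also named. The authors deposited RSEM expected counts per gene, of which 11.3% of the values above 0 were not whole, and per-library files from which the deposited TPM and FPKM values (RSEM estimates scaled by transcript length and library size) were also read. All 55450 gene identifiers matched GENCODE M21. Aligned reads, strand setting of the counting and read depth before counting were not given in the sources used here. Comparison columns of the authors were not used.

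Expected counts were rounded and, within each experiment, tested with edgeR 4.0.16 (R 4.3.3): filterByExpr, TMM factors, quasi-likelihood F test, Benjamini-Hochberg adjustment over all genes tested, called at 0.05. The SE of a log2 fold change was its size divided by the square root of F. Interactions and comparisons between groups came from a joint fit of all 30 libraries. Log2 CPM used a prior count of 2. Genes under the filter were tested with exact permutation tests. Pairs were tested with 100000 within-group permutations (Python 3.11.15, NumPy 2.4.6, SciPy 1.17.1), two-sided. The scripts were tested on simulated data. No pair of replicates was identical. Mice are numbered as in the labels, and the labels call them biological replicates.

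The 10 genes and the pathway and marker lists were chosen with earlier results of these data known. Named were all 10 genes, Cebpa, from each pathway list and genotype comparison up to 4 called genes in each direction with the largest log2 fold changes whose genotypes did not overlap, and the 3 genes most alike in level to each of the 10 except Asns, which was under the low-count filter, with 1 of these genes not reported here. Albumin, Timd4 and Jun were named from the marker lists after their values were seen. Promoters came from RefSeq (all 10 matched). Alternatives were RLE scaling, DESeq2 1.42.0, no low-count filter, robust fitting, the joint fit, a block for replicate number, a fold change over 2, each mouse left out, log2(TPM + 1) for pairs and FPKM for levels, and, chosen after seeing the data, library totals without TMM.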

Additional observations from a re-analysis of the deposited data

Results flagged for a closer look

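The effect of the knockout on 4 of the 10 genes differed between experiments by edgeR's interaction test over all 30 libraries. Of 9 genes tested, 2 were called between HFCFD8W+T10D and HFCFD2W, beside 11.2% of all genes. Between HFCFD12W+T10W and HFCFD2W 3 of the 9 were called, near the 30.7% of all genes. Herpud1 differed by -1.21 log2 units between HFCFD8W+T10D and HFCFD2W (adjusted p = 0.0181) and by -1.57 between HFCFD12W+T10W and HFCFD2W (adjusted p = 0.00087). In HFCFD2W all 5 knockout mice were above all 5 controls, and in HFCFD12W+T10W all 5 were below. Trib3 differed by 1.59 between HFCFD8W+T10D and HFCFD2W (adjusted p = 0.0129), Chac1 by -1.58 between HFCFD12W+T10W and HFCFD2W (adjusted p = 0.0362) and Atf4 by -0.728 in the same comparison (adjusted p = 0.0111). The Chac1 call was lost in 12 of 30 fits with 1 mouse left out. Cre line, diet time and tamoxifen differ together in these comparisons and cannot be told apart.

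Among 60 sets of 5 mice (10 genes in 6 groups), 1 mouse stood apart from its group on log2 CPM by Dixon's test at the 95% level. It was knockout mouse 5 of HFCFD12W+T10W, with Dnajb9 at 95.7 CPM while the other 4 lay between 82.1 and 84.7 CPM. On CPM itself a further set passed, with Dnajb9 at 152.2 CPM in control 4 of HFCFD12W+T10W and the next control at 97.95 CPM. Chance alone flags about 5% of such sets.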

How the results depend on the processing

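The number of the 10 genes called kept within 1.5 times of its main value in all comparisons with RLE scaling and robust fitting. In HFCFD2W the number lower was 2 with DESeq2 and without the low-count filter, where Xbp1 joined Trib3. The number higher there was 1 in the joint fit and 1 with a block for replicate number, where Herpud1 was lost, and 0 at a fold change over 2. In HFCFD8W+T10D the number higher was 1 (Atf3) with DESeq2, without the filter and in the joint fit, and the number lower was 1 (Xbp1) with DESeq2 and 2 (Xbp1 and Herpud1) in the joint fit. A fold change over 2 left 1 call between HFCFD8W+T10D and HFCFD2W controls, 0 between HFCFD12W+T10W and HFCFD8W+T10D controls and 2 between HFCFD12W+T10W and HFCFD2W controls. With library totals, chosen after seeing the data, there were 5 calls between HFCFD8W+T10D and HFCFD2W controls and 2 (Herpud1 and Hspa5) between the HFCFD12W+T10W and HFCFD8W+T10D knockout mice. With those totals the log2 fold change turned to 0.0136 for Atf4 in HFCFD8W+T10D, and in HFCFD12W+T10W to 0.175 for Dnajb9, 0.165 for Xbp1, 0.361 for Ddit3, 0.229 for Hspa5, 0.194 for Trib3, 0.151 for Atf4 and 0.0763 for Eif2ak1. With log2(TPM + 1), r of Atf3 and Ddit3 was 0.695 (adjusted permutation p = 0.00306), that of Atf4 and Asns turned to 0.0427 and that of Hspa5 and Ddit3 to 0.167. The cause of these changes was not tested, apart from the shift of the median under library totals. With FPKM the order of all 10 genes was the same in the 6 groups.

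With 1 mouse left out, the number higher ranged from 1 to 2 and the number lower from 1 to 2 in HFCFD2W, both ranged from 0 to 1 in HFCFD8W+T10D, and the number between the knockout groups ranged from 0 to 1. Of the list counts in HFCFD8W+T10D, the ATF4 genes higher fell to 2 without knockout mouse 2 or 3 or control 4. The ER genes higher ranged from 0 to 3 and moved in 8 of 10 fits, with 0 without control 1, 4 or 5 or knockout mouse 1, 3 or 4. The ER genes lower were 5 without control 5 and 1 without control 1, 2 or 3 or knockout mouse 2, 4 or 5, and the sensors higher were 2 without knockout mouse 4 and 1 without knockout mouse 5. In HFCFD2W the ER genes higher were 4 without knockout mouse 5, 0 without control 5 and 1 without control 1, 2 or 3 or knockout mouse 2, 3 or 6. The sensors lower there were 2 without knockout mouse 2 and 0 without control 1, 2 or 5 or knockout mouse 3, 4 or 6, and the sensors higher were 1 without knockout mouse 2, 3 or 5. In HFCFD12W+T10W the sensors higher were 2 without control 3 and 3 without control 1 or 2 or knockout mouse 2 or 5. The log2 fold change of Dnajb9 in HFCFD8W+T10D ranged from -0.224 to 0.222 and that of Ddit3 in HFCFD12W+T10W from -0.163 to 0.103. The r ranged from -0.244 to 0.0144 for Atf4 and Asns, 0.526 to 0.688 for Hspa5 and Herpud1, -0.106 to 0.124 for Xbp1 and Dnajb9, 0.393 to 0.57 for Atf3 and Ddit3 and -0.123 to 0.125 for Hspa5 and Ddit3.

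The groups share replicate numbers, but same-numbered mice did not deviate together, with correlations of -0.227 to 0.159 over the 3 experiments, so the numbers were not taken as pairs. The block moved the call of 1 of the 10 genes, Herpud1 in HFCFD2W (0.326, adjusted p = 0.0753 by edgeR), and no other of the 10. Of the pathway lists in HFCFD2W, the block left 4 ATF4 genes higher and 0 lower, 1 ER gene each way and 0 sensors lower, and the joint fit left 3 ATF4 genes lower and 1 sensor higher. For HFCFD8W+T10D the joint fit gave 4 ER genes higher and 5 lower and 1 sensor higher and 2 lower, and RLE scaling, no filter or the block left 0 ER genes higher. In HFCFD12W+T10W the joint fit left 2 ER genes higher, and a fold change over 2 left 0 lower in every list. Asns in all experiments and Atf3 in HFCFD2W had too few counts to pass the low-count filter.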
